A study of Mus musculus domesticus and Mus musculus domesticus x Mus musculus castaneus and Mus musculus castaneus with 27 samples.

Results

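Integrin and laminin genes were followed across mouse pluripotent stem cells (PSC) and motor neurons (MN) made from such cells in culture. The members are all protein-coding genes of the deposited count table whose mouse symbol is that of an integrin α or β chain or of a laminin chain. The rule matched 39 genes of the annotation, and 37 of the 27071 identifiers of the table are members: 17 integrin α genes, 9 integrin β genes, Itgbl1, 4 laminin α genes, 3 laminin β genes and 3 laminin γ genes. Itgbl1 is a related secreted protein and not a receptor chain. Itgam and Lama5 were not analysed here, so no statement on leukocyte α chains covers Itgam and no share among laminin α chains covers Lama5.

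Integrins are receptors that span the cell membrane as a pair of an α and a β chain and tie the extracellular matrix to the actin cytoskeleton. The α chain largely sets what is bound: α5 binds fibronectin with β1, αv binds fibronectin, vitronectin and latent TGF-beta with several β chains, α1, α2, α10 and α11 bind collagens, and α3, α6 and α7 bind laminins. Laminins are secreted trimers of an α, a β and a γ chain and form the base sheet of basement membranes. In the embryo the trimer of α1, β1 and γ1 is the early form, whereas trimers with the α3 and β3 chains are typical of stratified and glandular epithelia and are bound there by α6β4. Growing axons of motor neurons extend on laminin through β1 integrins.

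The 20 libraries fall into 8 groups by cell type and genotype: 2 PSC libraries each of C57BL/6 (BL6), CAST/EiJ (CAST) and the hybrid CAS129, 7 MN libraries of BL6, 1 of CAST, 2 of 129S6/SvEv (129), 3 of CAS129 and 1 of the hybrid 129CAS. BL6 and 129 are classical inbred mice, CAST belongs to another mouse subspecies, and the hybrids come from lines made of CAST and 129. The labels name no transgene, deletion or treatment in any group. The labels give neither the number of cell lines or clones per genotype, nor a sort, nor whether replicates were separate cultures, so p-values measure the spread between these libraries, which may be technical.

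PSC libraries held 4.5 M to 13.62 M counts and MN libraries 5.61 M to 44.57 M, with the highest totals in 129 MN, where depth and strain cannot be told apart. RNA of PSC and of MN was extracted with different kits, so a kit effect and a cell type effect cannot be told apart. Levels below are CPM, counts scaled to library size with TMM factors. Levels of different genes are compared only per kilobase of exon. The labels were checked against marker lists: 10 motor neuron genes summed to 507 to 3506 CPM in MN and 35.4 to 104 CPM in PSC, and 7 stem cell genes to 3685 to 5018 CPM in PSC. In MN the stem cell list summed to 42.7 to 113 CPM, apart from CAS129 MN with 387 to 1008 CPM. A list of 12 mesenchyme and fibroblast genes summed to 7477 to 30981 CPM in MN and to 540.1 to 3422 CPM in PSC, with no gene of the list at 0 in MN. All 12 were called higher in MN, alongside the 10 motor neuron genes. In bulk RNA, fewer cells of a type and less RNA per cell cannot be told apart.

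Of the 37 members, 34 reached 1 CPM in at least 2 of the 20 libraries. The other 3 were Itgb2l (at most 0.324 CPM in any library), Itgax (at most 0.975 CPM) and Itgad (at most 0.264 CPM), all of them chains linked to blood cells. Exon bases are shared with another annotated gene in 11 of the 37, over at most 8.6% of the member's exons apart from Itga10 with 33.5%. No source used here says whether the counting used strand. Itga10 and Lamc3 had 0 counts in all 6 hybrid libraries. Among 14353 genes at a mean of 1 CPM or more in BL6, 732 also had no count in any hybrid library. The cause was not tested, and no change of these 2 genes is read in the hybrids.

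**Figure D1:**
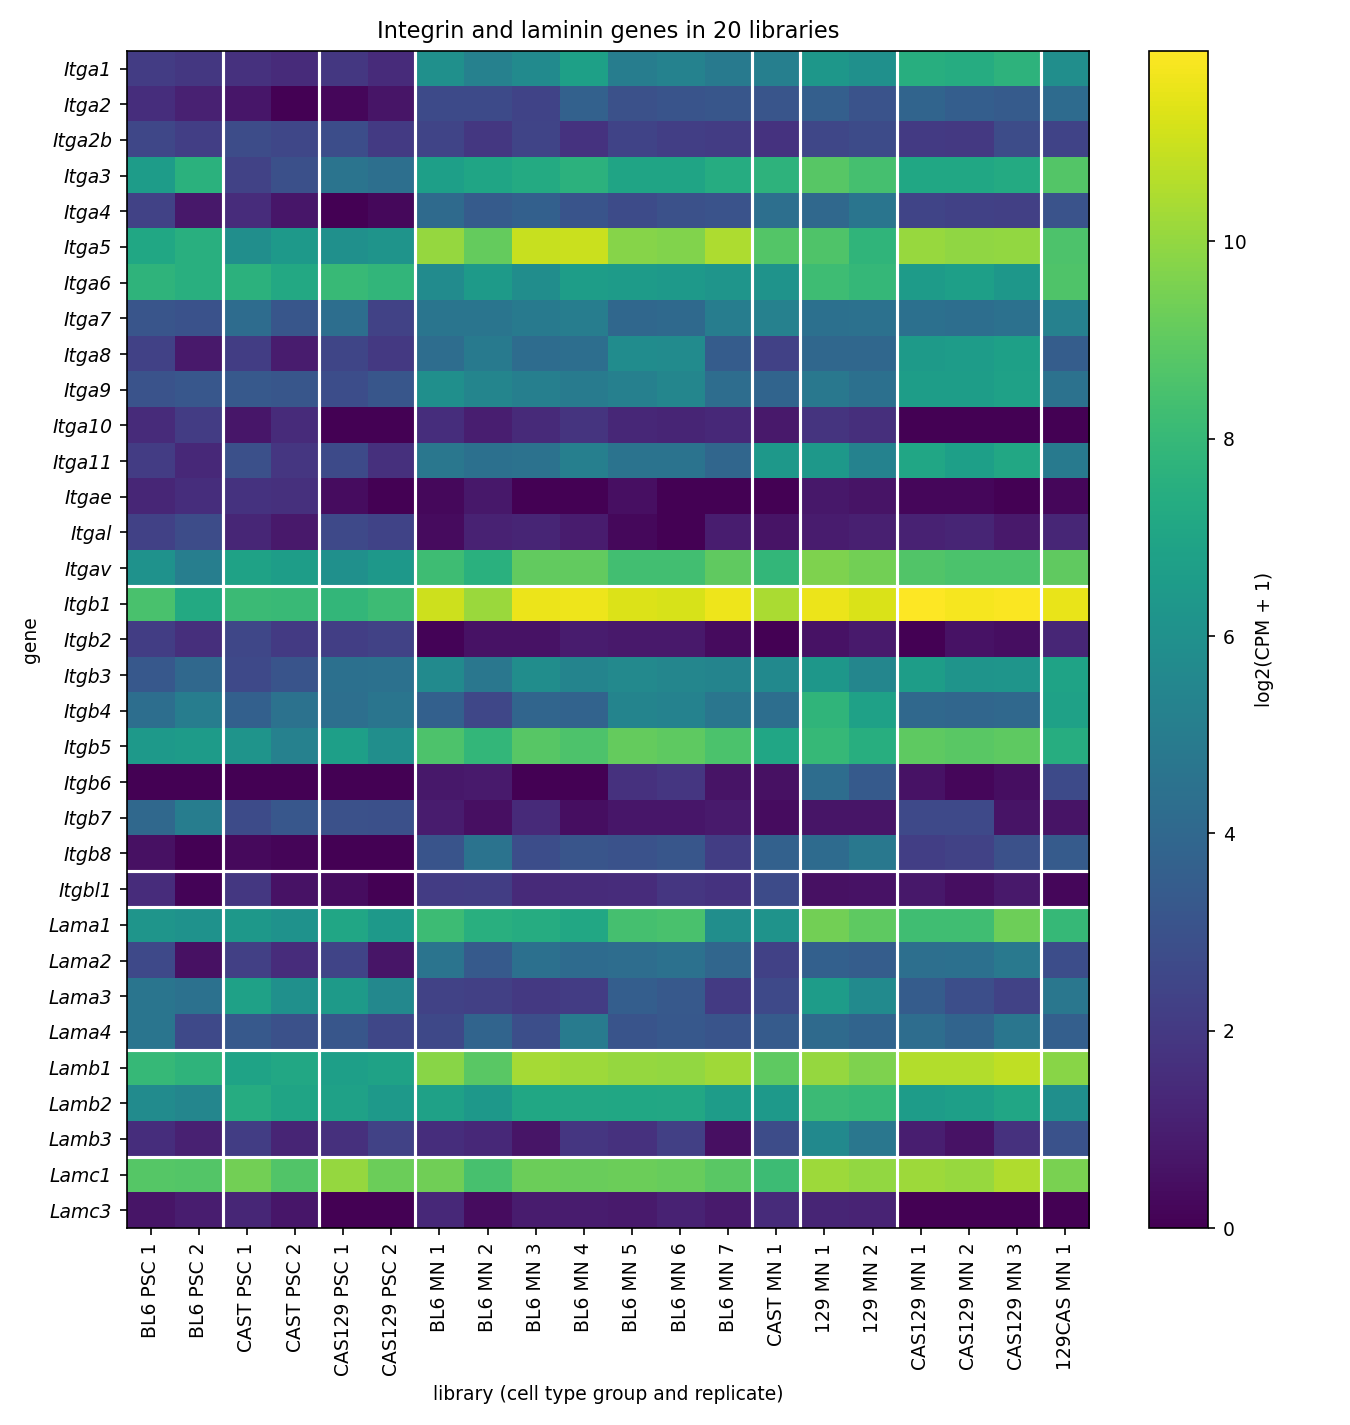
Level of members that reached 1 CPM in at least 2 libraries (rows) in each of the 20 libraries (columns), as log2(CPM + 1). White lines separate groups and gene families. Itgb1, Itga5, Itgav, Itgb5 and Lamb1 are brighter in every MN column than in the PSC columns, Itga6 and Lama3 are brighter in PSC columns than in BL6, CAST and CAS129 MN, and Itga10 and Lamc3 are dark in all hybrid columns.

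Chain use was first described as the share of each chain in the summed per-kilobase level of its family. Itgb1, the β chain that pairs with most α chains, led the β family in every group. It made 82.2% ± 3.89 (SD, n = 7) of the β level in BL6 MN, 85.3% ± 0.194 (n = 3) in CAS129 MN, 87.4% ± 1.72 (n = 2) in 129 MN, and 87.1% and 89.4% in the single CAST MN and 129CAS MN libraries. In PSC its share was 58.6% ± 19.0 in BL6, 66.4% ± 8.73 in CAS129 and 75.0% ± 4.09 in CAST (n = 2 each). Itgb5, a partner of αv, was next in every group, with 25.1% ± 8.45 in BL6 PSC and 16.2% ± 3.51 in BL6 MN. Itgb7, known as a partner of α4 and αE in lymphocytes, made 9.36% ± 6.87 of the β level in BL6 PSC and at most 0.125% as a mean of any MN group.

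The leading α chain differed between groups. In MN of BL6, Itga5 made 71.1% ± 6.51 of the α level, against 60.3% ± 1.27 in CAS129 MN and 47.6% in CAST MN. In 129 MN no chain reached such a share: Itga3 made 27.0% ± 0.332, Itgav 26.7% ± 3.42 and Itga5 23.9% ± 4.44. The 129CAS MN library held 29.3% of Itga5, 27.6% of Itga3, 18.3% of Itgav and 16.7% of Itga6, and with the longest transcript as gene length Itga6 came first there with 25.2%, ahead of Itga5 with 23.5%. In PSC the laminin receptor chain Itga6 led in CAS129 (48.1% ± 2.61) and, as a mean only, in CAST (37.9% ± 6.15). Itga5 made 28.6% ± 9.44 in CAST PSC, and in replicate 2 it was ahead, with 35.3% against 33.5% for Itga6. In BL6 PSC, Itga5 made 36.1% ± 2.06, Itga3 27.3% ± 9.45 and Itga6 24.8% ± 6.79, and with the longest transcript as gene length Itga6 came first with 36.5%. Itga3, which pairs with β1 to bind laminin, made 1.87% ± 0.725 in CAST PSC.

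Among laminins, β chain use varied between groups. Lamb1 made 74.2% ± 0.444 of the β level in BL6 PSC, while Lamb2, the β chain of synaptic and many adult basement membranes, led in CAST PSC with 63.8% ± 6.91 and in CAS129 PSC with 58.3% ± 6.67. With the longest transcript as length the lead in CAS129 PSC turned, with 51.1% for Lamb1 and 47.1% for Lamb2. In MN Lamb1 led in all groups, with the lowest share in 129 (65.3% ± 2.10) and the highest in CAS129 (89.7% ± 0.747). Among the 4 laminin α genes measured, Lama1 led in MN with 82.4% to 91.8% as group values. Lama1 made 68.3% ± 8.30 in BL6 PSC and 62.4% ± 3.38 in CAS129 PSC. In CAST PSC, Lama3 with 48.3% ± 7.32 and Lama1 with 46.8% ± 7.25 were alike within their spread.

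**Figure D2:**
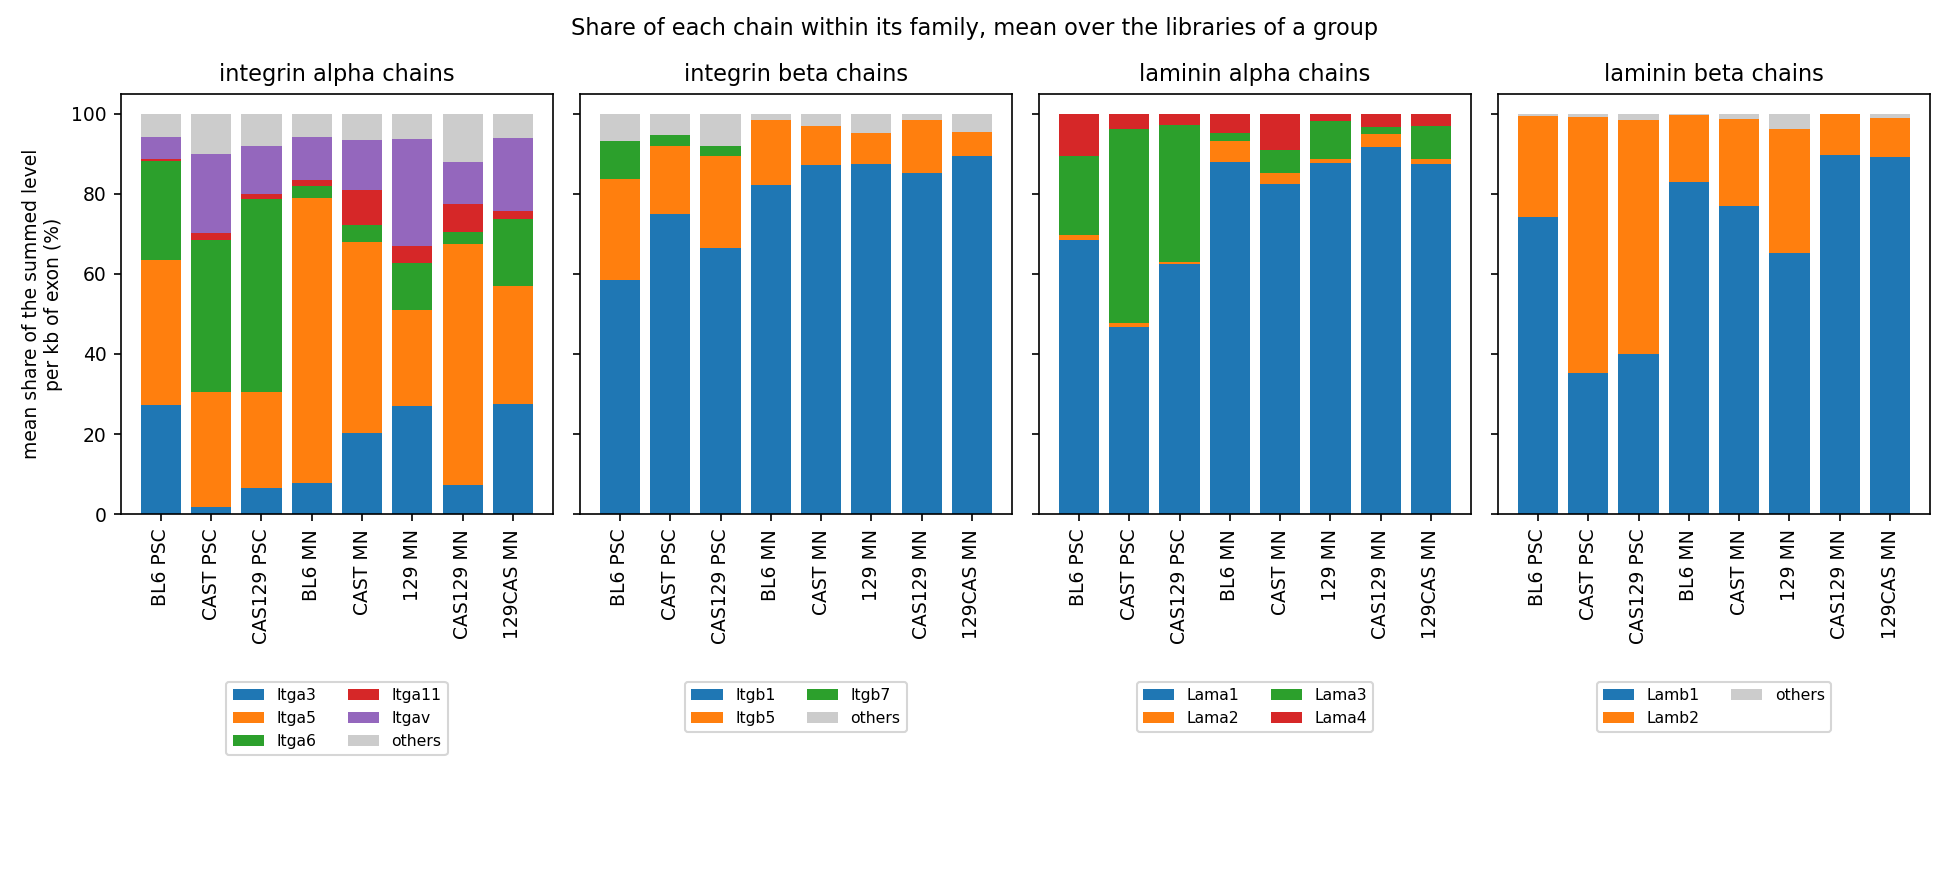
Mean share (%) of each chain in the summed level per kilobase of exon of its family, for 8 groups and 4 families. Chains under 5% in all groups are pooled as others, and Lama5 is not included. Itga5 fills 71.1% of the α bar in BL6 MN and 23.9% in 129 MN, and Lamb2 fills 63.8% of the β bar in CAST PSC.

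Summed per kilobase, integrin levels were higher in MN. The β sum was 104 ± 29.6 in BL6 PSC (per-kilobase CPM, n = 2) and 743 in BL6 MN (n = 7, from 352 to 902), and the α sum 90.7 ± 13.9 and 342 ± 134. The laminin β sum was 31.9 ± 4.01 in BL6 PSC and 122 ± 29.8 in BL6 MN. The sum of the 4 laminin α genes was 10.7 ± 2.15 in BL6 PSC and 25.4 ± 11.8 in BL6 MN, whereas in CAST it was 16.7 ± 4.53 in PSC and 8.78 in the MN library. These sums describe the libraries and were not tested.

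MN were then compared with PSC over BL6, CAST and CAS129, with 11 MN and 6 PSC libraries and genotype as a term. A gene was called at an adjusted p under 0.05. Of 34 members tested 25 were called, 19 higher and 6 lower in MN. Calls were common among all genes: 74.6% of 15596 genes passed, with 36.1% up and 38.5% down in MN. The share of members called is near this background, while their direction was mostly upward. The median log2 fold change was 1.36 over the members and -0.05 over all genes. It was 2.31 over 15 integrin α genes (10 higher, 3 lower), 2.03 over 8 integrin β genes (5 higher, 2 lower) and 0.26 over 10 laminin genes (3 higher, 1 lower). Without the first PSC library of each genotype, in which fibroblast markers were high, 24 members were called (18 higher), and without all CAS129 libraries 22 (16 higher). The mesenchyme list rose in all its 12 genes and the motor neuron list in all its 10. Their part in the rise of these integrin genes was not tested.

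Among receptor chains for fibronectin and other RGD ligands, Itgb1, Itga5, Itgav, Itgb5, Itgb3, Itgb8, Itgb6 and Itga8 rose and Itga2b was not called. Itgb1 (chr8:128685654-128733200) stood at 153 and 367 CPM in BL6 PSC, 273 and 277 in CAST PSC, and 241 and 293 in CAS129 PSC. In MN it ran from 1130.5 through a median of 2546 to 3203 CPM in BL6, was 1364 in CAST, and 3905, 3485 and 3742 in CAS129. The lowest MN library was above the highest PSC library. Its log2 fold change was 3.16 (SE 0.30, adjusted p = 5.9e-08). Over these MN libraries Itgb1 was lowest in BL6 replicate 2 and CAST, where the motor neuron list summed to 3506 and 3456 CPM. The others summed to 507 to 1976 CPM. Itga5 (547 and 420 CPM), Itgav (188 and 240), Itgb5 (241 and 132) and Lamb1 (471 and 502) were also lowest there. Not every risen member followed this order, and Itgb8 was highest there. The part of motor neurons in these levels was not tested.

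Itga5 (chr15:103344286-103366763), the fibronectin receptor chain, was at 138 and 186 CPM in BL6 PSC, 57.6 and 83.6 in CAST PSC, and 61.9 and 72.0 in CAS129 PSC. It ran from 547 through 1039 to 2038 CPM in BL6 MN, and was 420.4 in CAST MN and 1091, 973 and 1025 in CAS129 MN. The groups did not overlap, and BL6 PSC were the highest stem cells. The log2 fold change was 3.08 (SE 0.32, adjusted p = 1.6e-07).

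Itgav, the shared α chain of vitronectin and latent TGF-beta receptors, rose by a log2 of 2.31 (SE 0.32), from 33.6 to 117 CPM over PSC libraries to 188 to 537 CPM over the MN libraries of these genotypes. Its β partners rose as well, Itgb5 by 2.05 (SE 0.25) and Itgb3 by 2.01 (SE 0.22). Itgb8, which with αv releases active TGF-beta, was at 0 to 0.431 CPM in PSC and at 3.43 to 22.2 CPM in BL6 MN, with a log2 of 5.61 (SE 0.62). Itgb6, the epithelial partner of αv, had 0 counts in all 6 PSC libraries and 74 counts over these MN libraries, at least 15.4-fold higher against 3 counts over the PSC group. Of these counts 64 were in BL6 MN, 4 in CAST MN and 6 in CAS129 MN, where the bounds were 9.19-fold, 2.45-fold and 1.35-fold, and without BL6 MN replicate 5 or 6 Itgb6 was too low to be tested. Itga8, a receptor chain for nephronectin, rose by 3.44 (SE 0.63). In CAST, Itga8 was at 3.44 and 0.877 CPM in PSC and 3.89 in MN.

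The collagen receptor chains Itga1, Itga2 and Itga11 rose from low levels. Itga1 was at 1.75 to 3.30 CPM in the 6 PSC libraries. It was at 28.4 to 109 CPM in BL6 MN with a median of 38.2, at 34.9 in CAST MN and at 176, 168 and 211 in CAS129 MN. Its log2 fold change was 4.61 (SE 0.42, adjusted p = 3.2e-08). Itga11, the chain for fibrillar collagen typical of fibroblasts, rose by 3.84 (SE 0.35) and Itga2 by 3.12 (SE 0.50). The levels of Col1a1, a fibroblast collagen, ran from 4009 to 12138 CPM in BL6 MN and from 176 to 1800 CPM in PSC. Itga10 was not called (log2 -0.68, SE 0.43), and its level was at most 3.33 CPM in any library.

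Laminin receptor chains split. Itga6 (chr2:71745616-71858416), which pairs with β1 or β4, fell by a log2 of -1.50 (SE 0.16, adjusted p = 1.6e-07). It was at 181 and 216 CPM in BL6 PSC, 145 and 203 in CAST PSC and 227 and 265 in CAS129 PSC, and in MN at 53.0 to 100.4 CPM in BL6, 67.9 in CAST and 79.3 to 106 in CAS129. The groups did not overlap. Itga7, the chain of muscle laminin receptors, rose by 1.18 (SE 0.33), and Itgb4, the partner of α6 in epithelia, was not called (log2 -0.41, SE 0.36).

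Itga3 (chr11:95044474-95076801) was called higher (log2 1.55, SE 0.55, adjusted p = 0.016), but its groups overlapped and the call rests on genotype. BL6 PSC held 95.1 and 195 CPM, within or near the 106 to 201 CPM of BL6 MN. The call was lost without the CAST MN library (0.80, adjusted p = 0.083), without the CAS129 libraries (1.15, adjusted p = 0.15) and without the first PSC libraries (1.11, adjusted p = 0.13).

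Chains best known from leukocytes and platelets were low, and several were higher in PSC. Itgb7 fell by a log2 of -3.81 (SE 0.58), from 5.66 to 32.7 CPM in PSC to 0.379 to 1.70 CPM in BL6 MN, while CAS129 MN reached 5.27 CPM. Itgb2, the common β chain of leukocyte integrins, fell by -3.36 (SE 0.57), from 2.09 to 4.77 CPM in PSC to at most 0.884 CPM in BL6 MN. Its partner Itgal fell by -2.40 (SE 0.48). Itgae fell by -3.01 (SE 0.81), from at most 2.33 CPM, and its adjusted p was 0.056 with the replicate block. Over the 20 libraries the leukocyte marker Ptprc was at most 1.08 CPM and the platelet gene Pf4 at most 9.41 CPM, while the list of 12 leukocyte and platelet genes summed to 133 to 234 CPM in PSC and 25.3 to 50.4 CPM in MN of the 3 genotypes, with 1 to 7 of the 12 at 0 in any library. Its part in these levels was not tested.

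The other α chains of this kind rose or were not called. Itga4, which binds VCAM1 and fibronectin, rose by a log2 of 2.75 (SE 0.50), and Itga9, which binds tenascin and VCAM1, by 2.39 (SE 0.38). Itga2b, the platelet chain, was not called (log2 -0.54, SE 0.28) at 2.38 to 6.11 CPM over the 17 libraries. Itgbl1 rose by 1.39 (SE 0.56, adjusted p = 0.033), a call lost without any of BL6 PSC replicate 2 (0.99, adjusted p = 0.076), CAST PSC replicate 2 (1.21, adjusted p = 0.059), CAS129 PSC replicate 2 (1.26, adjusted p = 0.051) or the CAST MN library (1.31, adjusted p = 0.09), and without the CAS129 libraries (1.37, adjusted p = 0.07).

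Of the laminin genes, Lamb1 rose most. Lamb1 (chr12:31265234-31329644) was at 215 and 254 CPM in BL6 PSC, 119.6 and 139 in CAST PSC, and 106 and 116 in CAS129 PSC. It ran from 471 through 1056 to 1264 CPM in BL6 MN, and was 502 in CAST MN and 1505, 1505 and 1767 in CAS129 MN. All MN libraries were above all PSC libraries, with a log2 fold change of 2.51 (SE 0.29, adjusted p = 6.2e-07).

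Lama2, the α chain around muscle fibres and Schwann cells, rose by 2.29 (SE 0.54). Lama1 rose by 1.32 (SE 0.40, adjusted p = 0.0065), a call lost without the CAS129 libraries (1.09, adjusted p = 0.083). In CAST, Lama1 was at 80.1 and 67.7 CPM in PSC and 70.0 in MN. Lama2 was at 3.77 and 1.88 CPM in CAST PSC and 4.00 in CAST MN. Lama3 fell by -3.06 (SE 0.39, adjusted p = 1.8e-06), from 20.5 to 114 CPM in PSC to 2.92 to 10.8 CPM in the MN of these genotypes. Epithelial markers were lower in 6 of 10 and higher in 2 of 10 genes of their list (median -2.82), with sums of 699 to 1850.2 CPM in PSC and 99.5 to 445 CPM in these MN, and their part in the falls of Lama3 and Itga6 was not tested. Lamc1 was not called (log2 0.06, SE 0.23), with 416 to 1062 CPM in PSC and 289.5 to 1462 CPM in these MN. Lama4, Lamb2, Lamb3 and Lamc3 were not called either (log2 0.19, 0.33, -0.16 and 0.34). For Lamb2 the direction differed by genotype. Within BL6 it was called higher, at a log2 of 1.01 to 1.46 over 15 alternatives. Within CAST, with 1 MN library, it was not called, at -0.948 to -0.510 over 8 alternatives.

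**Figure D3:**
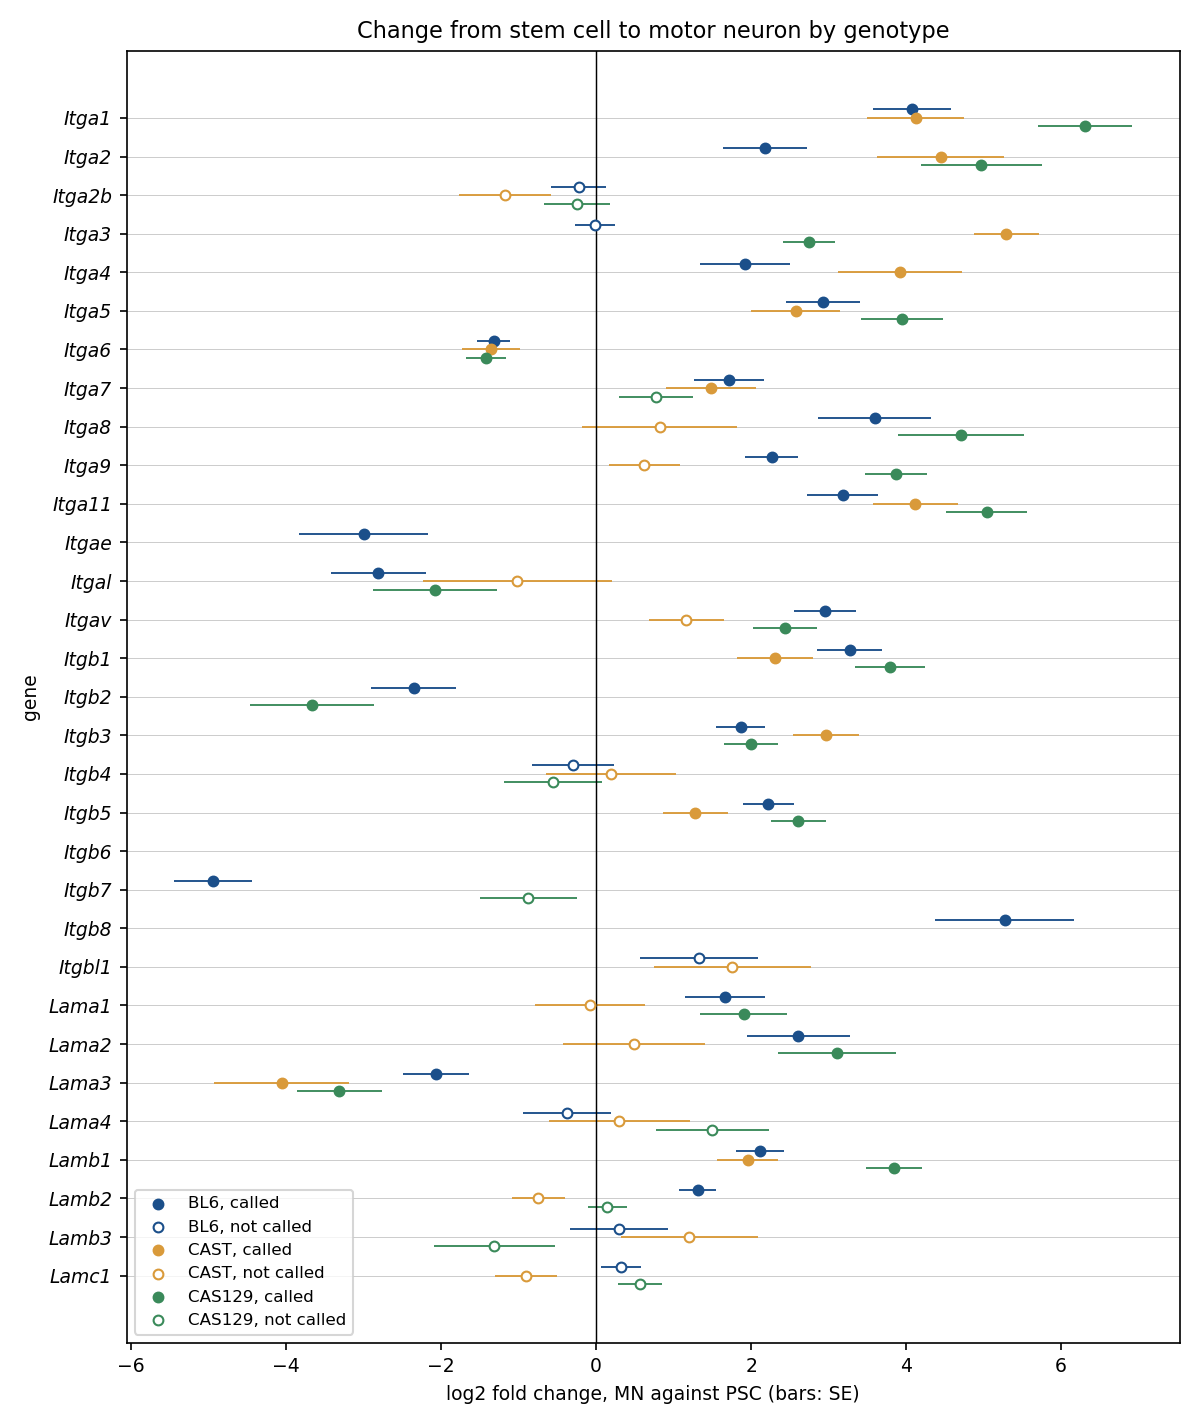
Log2 fold change of MN against PSC within BL6, CAST and CAS129 with SE as bars. Filled points were called and open points were not. Members with 3 counts or fewer in a compared group have no point there, so that Itgb6 has none, and Itga10 and Lamc3 are not drawn. Itga3 lies at -0.02 in BL6 and at 5.29 in CAST, while Itga6 lies at -1.32 to -1.42 in all 3 genotypes.

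Within single genotypes the number of calls followed that of all genes. In BL6, 24 of 34 members were called (18 higher) against 70.2% of all genes (36.0% higher). In CAST 17 were called (12 higher) against 56.0% (30.3% higher), and in CAS129 20 (16 higher) against 54.4% (30.4% higher). The median log2 fold changes were 1.496, 0.77 and 1.82, the last being 1.90 over the 31 members that keep a value with genes at 0 set to their bound. CAST has 1 MN library, whose spread is assumed to be that of the other groups. Itgb1, Itga5, Itga1, Itga2, Itga4, Itga11, Itgb3, Itgb5, Itgb8 and Lamb1 were called higher, and Itga6, Itgb2 and Lama3 lower, within each of the 3 genotypes. Of these calls, Itga4 in BL6 was lost without BL6 PSC replicate 2 (1.07, adjusted p = 0.12) and Itgb5 in CAST without CAST PSC replicate 2 (0.88, adjusted p = 0.13). Itgb8 in CAS129 had 0 PSC counts and was at least 18.5-fold higher in MN. Itgb2 in CAST MN had 0 counts and was at least 12.4-fold lower than in PSC. The Itga4 rise in CAS129 set 69 counts in MN against 1 in PSC, a ratio of 46.6 (95% exact interval 8.09 to 1870, counting error only).

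The CAS129 change was set against the BL6 change in 1 interaction test. The difference was called for 8 members, 7 larger in CAS129 and 1 smaller, where 18.2% of all genes were called. The median of this difference over all genes was 0.26, and 0.00 with RLE scaling, under which 4 members were called. Of the calls over all genes, 75.1% were larger in CAS129, against 53.0% with RLE scaling. Without the first PSC libraries only Itgb7 and Itga3 were called. Itga3 differed by 2.77 (SE 0.41, adjusted p = 0.0003): its log2 change was -0.02 (SE 0.26) in BL6 and 2.75 (SE 0.34) in CAS129.

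Itgb7 differed by 4.07 (SE 0.87, adjusted p = 0.0041, and 0.055 with the replicate block). It changed by -4.94 (SE 0.50) in BL6 and by -0.87 (SE 0.63, not called) in CAS129. The CAS129 MN libraries held 5.27, 5.19 and 0.56 CPM, beside 179, 176 and 65.7 CPM of the stem cell gene Pou5f1. Pou5f1 was at most 1.64 CPM in BL6 MN, and the part of undifferentiated cells in the Itgb7 level was not tested.

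The other called differences were Lamb1 (1.73, SE 0.41), the collagen receptor chains Itga1 (2.23, SE 0.69), Itga2 (2.79, SE 0.94) and Itga11 (1.86, SE 0.62), Itga9 (1.60, SE 0.47) and, smaller in CAS129, Lamb2 (-1.17, SE 0.33). The Itga1, Itga2, Itga9 and Itga11 calls were lost with RLE scaling (adjusted p = 0.072, 0.084, 0.064 and 0.1). Over the 19 alternatives run, the call was lost in 11 for Itga1, 16 for Itga2, 8 for Itga9 and 17 for Itga11. Lamb1 was lost without CAS129 PSC replicate 2 (1.60, adjusted p = 0.065), and Lamb2 without BL6 PSC replicate 2 (-1.16, adjusted p = 0.085), CAS129 PSC replicate 1 (-0.9995, adjusted p = 0.097) or CAS129 MN replicate 1 (-1.20, adjusted p = 0.056). Between 3 and 8 members were called without any 1 library: 3 without CAS129 MN replicate 1, 4 without CAS129 MN replicate 2 or 3, BL6 PSC replicate 2 or either CAS129 PSC library, and 5 without BL6 PSC replicate 1 or BL6 MN replicate 3 or 7. These were not all the same genes: without CAS129 PSC replicate 2 the 4 included Itga7 (-1.84, adjusted p = 0.044), which was not called with all libraries.

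Genotypes were next compared within PSC. Itga3 had the largest called difference of CAST against BL6: it stood at 95.1 and 195 CPM in BL6, 23.2 and 19.2 in CAS129 and 4.11 and 6.52 in CAST. No libraries of 2 genotypes overlapped. Against BL6 the log2 difference was -4.75 in CAST (SE 0.48, adjusted p = 0.00083) and -2.73 in CAS129 (SE 0.43, adjusted p = 0.0023), and CAS129 was above CAST by 2.01 (SE 0.44, adjusted p = 0.017). The last call was lost without CAST replicate 1 (1.72, adjusted p = 0.14) or CAS129 replicate 1 (1.87, adjusted p = 0.084). Epithelial markers were also lower than in BL6, in 5 of 8 genes tested in CAST (median -1.91) and 4 of 8 in CAS129 (median -1.69), with none higher. Their list summed to 1589.5 and 1850.2 CPM in BL6, 788 and 699 in CAST and 1046 and 944 in CAS129, and its part in the Itga3 level was not tested.

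Other calls between stem cells concerned laminin chains and Itga5. Lama3 was at 24.2 and 20.5 CPM in BL6, at 114 and 62.4 in CAST and at 89.4 and 47.2 in CAS129, above BL6 in CAST by 2.02 log2 units (SE 0.43, adjusted p = 0.021) and in CAS129 by 1.65 log2 units (SE 0.42, adjusted p = 0.022). Lamb2 was at 53.4 and 44.0 CPM in BL6, 168 and 124 in CAST and 114 and 86.5 in CAS129, higher by 1.62 (SE 0.31, adjusted p = 0.015) and 1.09 (SE 0.31, adjusted p = 0.034). In both genes BL6 lay below the other libraries. The epithelial list summed highest in BL6 (1589.5 and 1850.2 CPM) and lowest in CAST (788 and 699 CPM). Its part in the Lama3 level was not tested. Lamb1 was lower in CAS129 than in BL6 by -1.03 (SE 0.28, adjusted p = 0.027) and Itga5 by -1.24 (SE 0.32, adjusted p = 0.024), and Itgb7 by -1.79 (SE 0.49, adjusted p = 0.029). The test also called Itga10, which had no hybrid counts, and no change is read from it. Itgb3 was higher in CAS129 than in CAST by 1.71 (SE 0.45, adjusted p = 0.036).

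In all, 3 of 31 members tested were called for CAST against BL6, 2 of them higher, against 10.5% of all genes (5.74% higher). For CAS129 against BL6, 7 were called, 2 of them higher, against 25.8% (8.72% higher), and for CAS129 against CAST 2 were called, both higher, against 14% (2.27% higher). The shares of members called are near those of all genes in the comparisons with BL6 and lower for CAS129 against CAST (6.45%). With 2 libraries per genotype these counts are fragile. Leaving out single libraries gave 1 to 6, 1 to 7 and 0 to 1 calls, and of the calls against BL6 only those of Itga3 held in every such fit. For CAST against BL6, 1 call was made without BL6 replicate 2 or CAST replicate 1, and 6 were made without BL6 replicate 1. For CAS129 against BL6, 4 were made without BL6 replicate 2, 1 without CAS129 replicate 1 and 2 without CAS129 replicate 2. The 4 included Lama4 (-1.88, adjusted p = 0.038), which was not called with all libraries. For CAS129 against CAST, edgeR called 0 without CAST replicate 1 or CAS129 replicate 1 and 1 without either other library, and with all libraries DESeq2 called 4.

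The 2 PSC libraries of a genotype also differed in fibroblast markers. Acta2, a smooth muscle and myofibroblast actin, was at 145, 136 and 99.6 CPM in library 1 of BL6, CAST and CAS129 and at 4.81, 5.89 and 1.37 in library 2. Of the 31 members tested, 14 were higher in library 1 in all 3 genotypes and 3 were lower, where 15.9% and 18.3% of all genes were. Lama2 was at 5.24, 3.77 and 4.39 CPM in library 1 and 0.465, 1.88 and 0.587 in library 2, and Lama3, Lamb2, Itga11 and Itga8 were among the 14. The part of fibroblasts in these values was not tested.

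**Figure D4:**
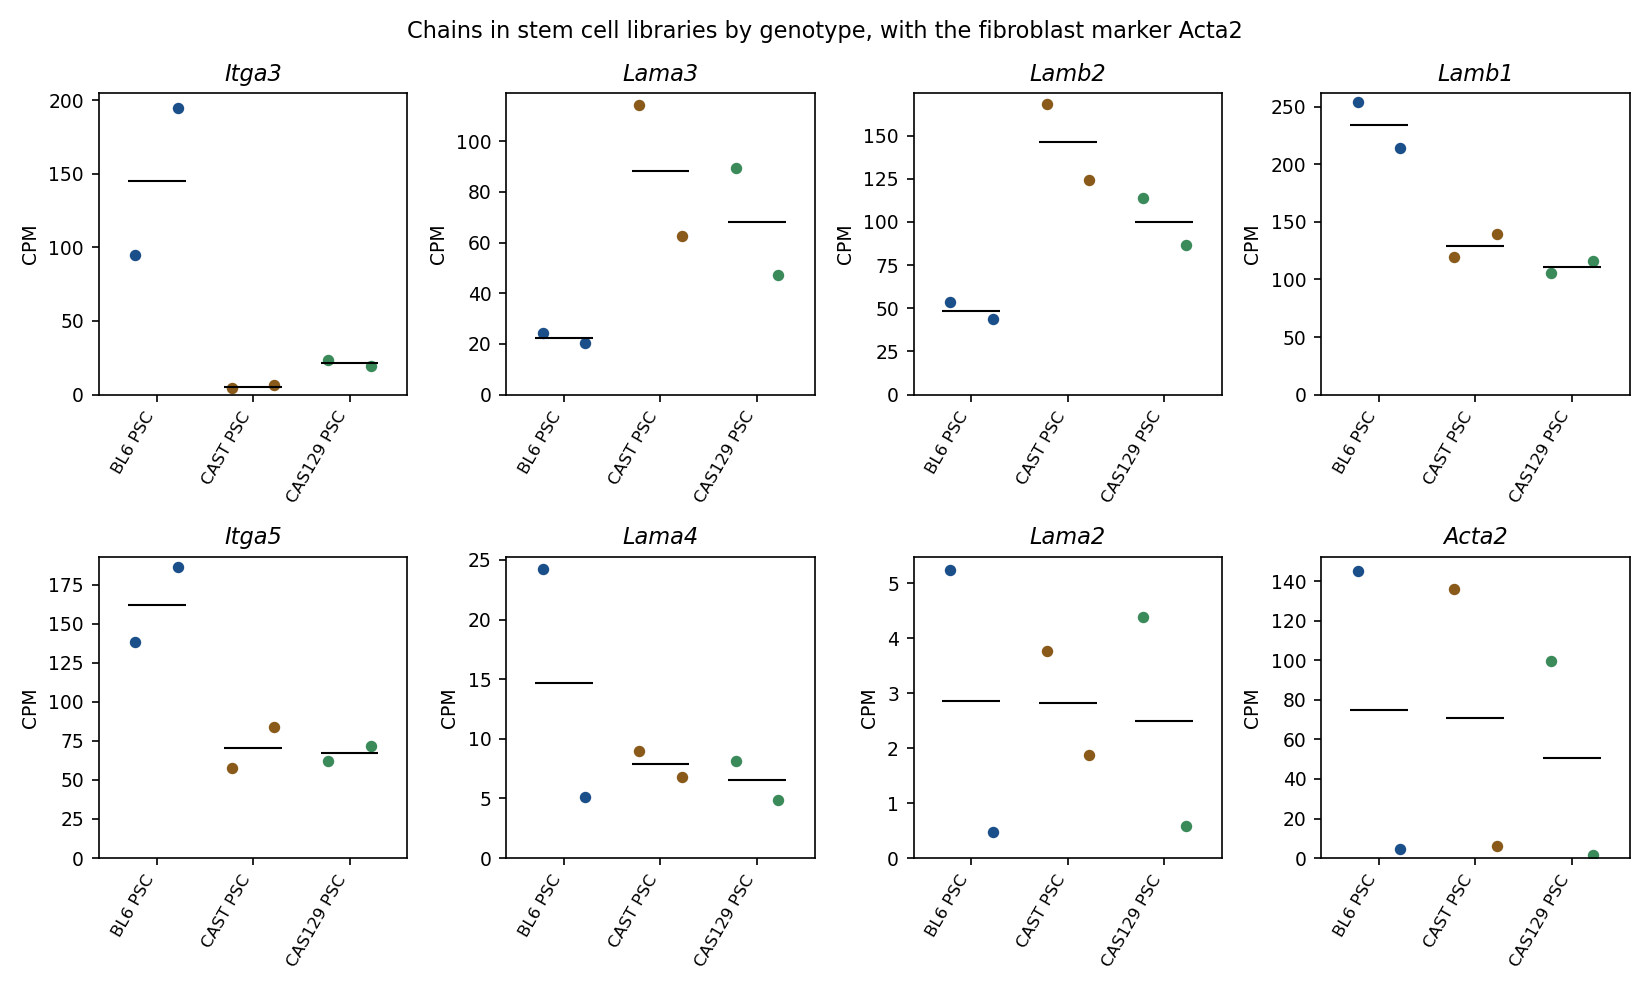
CPM of 7 members and of the fibroblast marker Acta2 in the 6 PSC libraries, 2 per genotype from left (library 1) to right (library 2), with the group mean as a line. Itga3 is high only in BL6 (95.1 and 195 CPM) and Lama3 and Lamb2 are lowest there, while Lama2 and Acta2 are higher in library 1 of each genotype.

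Among MN, 129 differed from BL6 in laminin chains and receptor chains known from epithelia. Lama3 was at 94.2 and 51.8 CPM in 129 and at 2.92 to 10.8 CPM in BL6 (median 3.76), a log2 difference of 3.64 (SE 0.43, adjusted p = 2.7e-05). Lamb3 was at 49.3 and 25.2 CPM against 0.396 to 3.78 (median 1.95), with 4.15 (SE 0.49, adjusted p = 2.9e-05). For both chains the 129 libraries lay above all 7 BL6 libraries.

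The epithelial receptor chains moved alike. Itgb4, which ties epithelial laminin to keratin filaments, was at 226 and 114 CPM in 129 and 4.78 to 40.2 in BL6 (log2 2.89, SE 0.51, adjusted p = 0.00076). Itga6 was at 301 and 243 CPM against 53.0 to 100.4 (log2 1.64, SE 0.21, adjusted p = 5.1e-05), and Itga3 at 456 and 335 against 106 to 201 (log2 1.33, SE 0.20, adjusted p = 0.00023). Itgb6 was at 18.2 and 9.31 CPM against 0 to 2.67 (log2 3.63, SE 0.74, adjusted p = 0.002). All 4 were higher in both 129 libraries than in any BL6 library, and the share of all genes without overlap was not counted.

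Epithelial markers moved with these genes. Of 10 epithelial markers 9 were called higher in 129 MN than in BL6 MN, and the list summed to 1164 and 1754.5 CPM in 129 and to 99.5 to 445 CPM in BL6, with no marker at 0 in 129. The keratin gene Krt8 was at 607 and 399 CPM in 129 and at 189 and 167 CPM in BL6 replicates 5 and 6, the highest of BL6. Those 2 BL6 libraries were also the highest of BL6 for Lama3 (10.8 and 9.13 CPM), Itgb4 (40.2 and 38.4 CPM) and Itgb6 (2.22 and 2.67 CPM). For the other chains this did not hold: Itga6 and Itga3 were highest in replicate 4 (100.4 and 201 CPM). Lamb3 was highest in replicates 6 and 4 (3.78 and 2.65 CPM). The single 129CAS library, described only, had 919 CPM of Krt8 with 25.7 of Lama3, 7.08 of Lamb3, 111.7 of Itgb4 and 404 of Itga6. Of other lists, 6 of 9 endoderm markers tested were higher and 1 lower (median 1.78), and 6 of 7 muscle markers were higher and 1 lower (median 4.12). The endoderm list summed to 266 and 293 CPM in 129 and to 74.6 to 144 CPM in BL6. The muscle list summed to 379 and 383 CPM in 129, within the 195 to 1632 CPM of BL6. Of all genes, 18.3% were called higher and 18.1% lower. The part of epithelial, endoderm or muscle cells in the levels of the members was not tested.

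**Figure D5:**
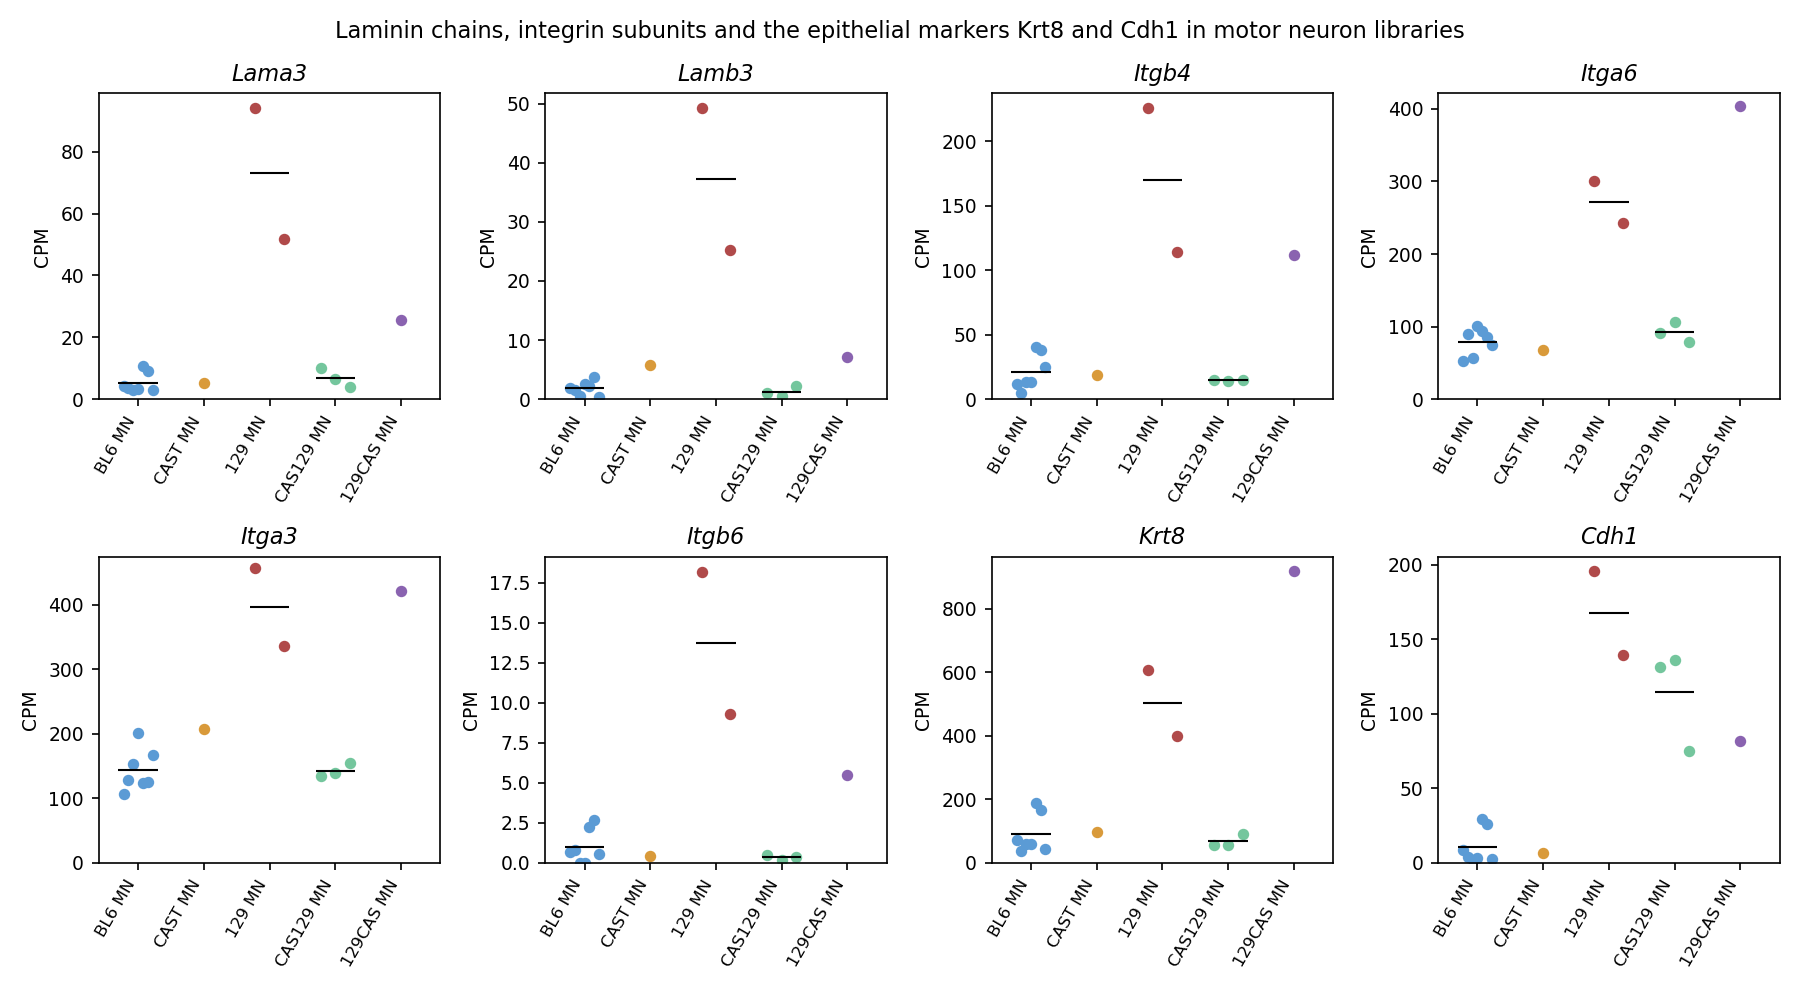
CPM of 6 members and of the epithelial markers Krt8 and Cdh1 in the 14 MN libraries by genotype, with the group mean as a line where there is more than 1 library. The 129 libraries are above all BL6 libraries in every panel, for example 226 and 114 CPM of Itgb4 against at most 40.2, and the 129CAS library is also above the BL6 libraries in every panel.

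In all, 15 of 32 members tested were called between 129 and BL6 MN, 11 higher and 4 lower, against 36.4% of all genes, with a median of 0.36 and 0.00 over all genes. Other rises were Itga11 (1.26, SE 0.27), Lamb2 (1.01, SE 0.20), Itga4 (0.94, SE 0.32) and Lamc1 (0.86, SE 0.20). The falls were Itgbl1 (-2.47, SE 0.43), Itga5 (-2.13, SE 0.49), Itgb5 (-1.09, SE 0.27) and Lama2 (-0.80, SE 0.29). Itga5 was at 399 and 221 CPM in 129, below all BL6 libraries, and the call was lost without 129 replicate 2 (-1.74, adjusted p = 0.085). Lama2 (adjusted p = 0.049) was lost without either 129 replicate (-0.90, adjusted p = 0.15, and -0.69, adjusted p = 0.28) and without any of BL6 replicates 1, 3, 4, 5, 6 and 7. Itgb5 was lost without 129 replicate 2 (-0.83, adjusted p = 0.13), Lamc1 without replicate 1 (0.73, adjusted p = 0.081), Itga11 without replicate 1 (0.59, adjusted p = 0.19), and Itga4 without either (1.21, adjusted p = 0.052, and 0.61, adjusted p = 0.37) or without any of BL6 replicates 4 to 7. Mesenchyme markers were called lower for 6 of 12 genes in 129, and their part in the fall of Itga5 and Itgb5 was not tested.

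In CAS129 MN, 4 α chains were called higher than in BL6. Itga1, Itga8, Itga9 and Itga11 were higher by a log2 of 1.73 (SE 0.33), 1.67 (SE 0.41), 1.33 (SE 0.25) and 2.35 (SE 0.24, adjusted p = 2.7e-06). Itga11 was at 131, 107 and 139 CPM in CAS129 and 14.1 to 34.2 in BL6, and Itga9 at 99.5, 97.9 and 111 CPM against 18.3 to 61.0. Itga8 was at 90.4, 96.0 and 110.5 CPM against 10.03 to 55.4. For these 4 genes no CAS129 library overlapped BL6, and the share of all genes without overlap was not counted.

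Further calls of CAS129 against BL6 MN were Lamc1 (1.06, SE 0.18), Itgb3 (0.80, SE 0.23) and Itgb7 (2.13, SE 0.57) as higher, and Itga4 (-1.31, SE 0.34) and Itgbl1 (-2.16, SE 0.43) as lower. Itgb3 was lost without CAS129 replicate 1 (0.64, adjusted p = 0.064) and Itgb7 with the replicate block (1.68, adjusted p = 0.18). With Itga10 and Lamc3, which had no hybrid counts, 11 of 32 members were called (7 higher), a smaller share than the 59.5% of all genes called. Acta2 was at 11085 to 12959 CPM in CAS129 MN and 2372 to 7950 CPM in BL6 MN, while of the 12 mesenchyme markers 3 were higher and 3 lower. Of 10 motor neuron markers 8 were lower in CAS129 MN (median -1.66), with sums of 507 to 645 CPM against 1167 to 3506 CPM in BL6 MN. Stem cell markers were higher in 6 of 7 genes (median 6.82), and epithelial markers in 5 of 10, with 1 lower. The part of these cell types in the α chain levels was not tested.

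Against 129, CAS129 MN had 20 of 32 members called, 8 higher and 12 lower, where 56.7% of all genes were. The 12 include Itga10 and Lamc3, which had no hybrid counts and from which no change is read. The α3 and β3 laminin chains and the epithelial receptor chains were lower, for example Lamb3 by -4.87 (SE 0.72) and Itgb4 by -3.49 (SE 0.69), and Itga8 (2.76, SE 0.62), Itga9 (2.17, SE 0.37) and Itga5 (1.75, SE 0.52) were higher. Without 129 replicate 2, 13 members were called, 2 of them higher, and Itga5 was not (1.37, adjusted p = 0.12). Mesenchyme markers were higher in 10 of 12 genes and lower in 1 (median 1.85), stem cell markers were higher in 5 of 7 (median 6.22), and epithelial markers were lower in 6 of 10 (median -2.42). Their part in the member changes was not tested. Both comparisons use the same CAS129 libraries.

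The single CAST MN library differed from BL6 MN in 5 of 32 members, 1 higher and 4 lower, against 12.3% of all genes (5.76% higher, 6.58% lower). Itga11 was higher with 80.7 CPM (log2 1.74, SE 0.34, adjusted p = 0.0049). Itga8 with 3.89 CPM (-2.97, SE 0.90), Itga9 with 13.4 (-1.57, SE 0.47), Itgb5 with 132 (-1.73, SE 0.39) and Lama2 with 4.00 (-2.21, SE 0.47) were lower, each below all BL6 libraries. The share of all genes for which the CAST library lay outside the BL6 range was not counted. Itga8 was lost without BL6 replicate 1 (-3.03) and Itga9 without BL6 replicates 3, 5 or 6. Over the 11 alternatives run, the call was lost in 2 for Itga8, 4 for Itga9 and 1 for Lama2. Without BL6 replicate 2, 9 members were called, 8 of them lower. The mesenchyme list summed to 10123 CPM in this library and 14608 to 30981 CPM in BL6 MN, with 2 of 12 genes called lower (median -1.54), and its part in these falls was not tested. With 1 library the difference has no replicate check within CAST.

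Matrix ligands and adaptors were counted from 3 lists, where 74.6% of all genes were called in this comparison, 36.1% higher and 38.5% lower. The share of basement membrane partners called is near that background. Of 15 basement membrane partners tested, 9 were higher in MN over the 3 genotypes and 3 lower, with a median log2 of 2.19. The collagen IV chains Col4a1 (4.94, SE 0.42) and Col4a2 (5.01, SE 0.41) and Sparc (3.02, SE 0.37), which binds them, and the proteoglycan Hspg2 (1.80, SE 0.26) rose, and the largest rise was Frem1 (5.09, SE 0.63), at a mean of 1.65 CPM in BL6 MN. Col4a1 was at a mean of 145 CPM in BL6 PSC and 5389 CPM in BL6 MN. Nid2, which links laminin to collagen IV (-2.50, SE 0.31), the laminin receptor Bcam (-3.07, SE 0.21) and Smoc1 (-1.27, SE 0.22) fell.

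Of 18 other integrin ligands tested, 15 were higher and 2 lower, with a median of 3.34. Fibronectin, Fn1, rose by a log2 of 2.71 (SE 0.33), from a mean of 1977 CPM in BL6 PSC to 17479 CPM in BL6 MN. Thbs1 (4.66, SE 0.78), Tnc, a ligand of α9 (4.30, SE 0.60), and the neuronal adhesion molecule L1cam (6.42, SE 0.37) rose as well. Ccn2 rose (3.45, SE 0.76) but was at 0 CPM in CAS129 of both cell types. Spp1 (-2.32, SE 0.27) and Icam1, a ligand of β2 integrins (-1.06, SE 0.21), fell.

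Of 29 adaptor and signalling genes tested, 18 were higher and 6 lower, with a median of 0.77. The actin linkers Vcl (2.88, SE 0.38) and Tln1 (1.85, SE 0.29), Tns1 (3.27, SE 0.53), Zyx (3.99, SE 0.45) and the tetraspanin Cd81 (0.54, SE 0.16) rose. Cd9 (-2.88, SE 0.22), the blood cell kindlin Fermt3 (-2.96, SE 0.43), Kank2 (-0.53, SE 0.20), Parvb (-0.74, SE 0.32) and Dock1 (-0.38, SE 0.16) fell. In the same comparison all 12 mesenchyme markers (median 3.07) and all 10 motor neuron markers (median 5.45) were called higher. The part of either cell type in these lists was not tested.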

How the data were processed

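RNA of 20 libraries was analysed. Per the labels' protocols it was captured on oligo-dT beads and copied from random hexamers. Per the submitters' processing notes STAR and the build GRCm38 were used, while no source used here gives the counting program or its strand setting. The authors deposited whole-number read counts per gene, not normalised. Of 28 count columns, 20 were matched to samples by name and 8 were not used, and 7 samples had no column. GENCODE M21 named 27031 identifiers, and 40 had no match. Counts were tested with edgeR 4.0.16 (R 4.3.3): TMM scaling, genes at 1 CPM in at least 2 libraries of a fit, the quasi-likelihood test and Benjamini-Hochberg adjustment over all genes tested, called at 0.05. SE was taken as the size of the log2 fold change over the root of its F statistic. The 12 comparisons came from 4 fits: 17 libraries with genotype as a term, all 8 groups, 6 PSC libraries and 14 MN libraries. Gene length was the union of annotated exons. The scripts were tested on simulated data. Replicate pairs (28) differed beyond sampling noise, with chi-square per degree of freedom of 2.96 to 120.66, so none was merged. Bounds against 0 counts use 3 counts over the group and cover counting error only. Members at 1 CPM in 2 libraries are named with values. Where groups are said not to overlap, the share of all genes without overlap was not counted. From partner lists, up to 4 called genes per direction with the highest mean and the largest rise and fall are named. Genes singled out as examples in comparisons, and Pou5f1, Krt8, Acta2, Pdgfra, Col1a1, Ptprc and Pf4, were chosen after their values were seen. Of the members, 1 is counted but its values are not reported here. The members and lists were chosen with earlier results of these data known. Alternatives were RLE scaling, no filter, DESeq2 1.42.0, a replicate block, leaving out each library, fits per genotype, and the longest transcript as gene length. Fits without the CAS129 or the first PSC libraries were added after seeing the data.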

Additional observations from a re-analysis of the deposited data

Results flagged for a closer look

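In BL6 MN, the only group of 4 to 10 libraries, 3 of 34 members had a library far above the others. For normally distributed values chance flags about 1 in 20. Whether these CPM values follow that distribution was not tested, and the share flagged over all genes was not counted. Itgb7 was at 1.70 CPM in replicate 3, with the next at 0.878. Lama4 was at 30.4 CPM in replicate 4, with the next at 13.4. Itgb8 was at 22.2 CPM in replicate 2, with the next at 8.24.

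For 8 of 34 members the MN against PSC change was called different between CAS129 and BL6, by a test of the difference itself. Of all genes 18.2% were called. With RLE scaling 4 members were called, and without the first PSC libraries 2. The log2 difference, CAS129 minus BL6, was 4.07 for Itgb7, 2.79 for Itga2, 2.77 for Itga3, 2.23 for Itga1, 1.86 for Itga11, 1.73 for Lamb1, 1.60 for Itga9 and -1.17 for Lamb2.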

How the results depend on the processing

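Of 155 calls of members over the 12 comparisons, 107 held under every alternative run for them, 48 were lost under at least 1, and none changed direction. The 155 leave out the member whose values are not reported, which the counts per comparison include. Calls of Itga10 and Lamc3 in the hybrids, from which no change is read, are among the 155. Leaving out 1 library lost 42 of the 155 under at least 1 omission. The replicate block lost 11, no filter beyond 1 count lost 5, RLE scaling 4 and DESeq2 1.

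Members called for the difference CAS129 minus BL6 went from 8 to 4 with RLE scaling and to 2 without the first PSC libraries. For CAST against BL6 PSC they went from 3 to 7 without the filter, 7 with DESeq2 and 5 with the block. For CAS129 against BL6 PSC they went from 7 to 11 without the filter, for CAS129 against CAST PSC from 2 to 5 without the filter and 4 with DESeq2, and for CAST against BL6 MN from 5 to 3 without the filter. The cause was not tested.

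With 1 library left out, calls ranged from 24 to 26 for MN against PSC over 3 genotypes, 21 to 24 in BL6, 16 to 18 in CAST, 18 to 20 in CAS129 and 3 to 8 for the difference. They ranged from 1 to 6, 1 to 7 and 0 to 1 for CAST against BL6, CAS129 against BL6 and CAS129 against CAST in PSC. In MN they ranged from 11 to 17 for 129 against BL6, 4 to 9 for CAST against BL6, 10 to 13 for CAS129 against BL6 and 13 to 20 for CAS129 against 129. A lone library left in a group is assumed to vary like the other groups.

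Direction turned only for members that were not called. Lama4 over 3 genotypes was at a log2 of -0.0003, -0.0317 and -0.0582 without BL6 PSC replicate 2, CAS129 PSC replicate 2 or BL6 MN replicate 4 and at -0.2647 without the CAS129 libraries, and at 1.0875 without BL6 PSC replicate 1. Itgb4 in BL6 was at 0.059 without BL6 PSC replicate 2 and -0.6459 without replicate 1, and Itga7 and Lamc1 in CAS129 at -0.2009 and -0.0568 without CAS129 PSC replicate 2 and 2.167 and 0.9016 without replicate 1. The difference for Itga7 was 0.5272 without CAS129 PSC replicate 1, -1.8411 without replicate 2 and 0.4488 without the first PSC libraries. Lama4 was at 0.3748 for CAS129 against BL6 PSC without BL6 PSC replicate 1 and -1.883 without replicate 2, and Lama3 for CAS129 against BL6 MN at -0.123 without CAS129 MN replicate 1 and 0.5249 without BL6 MN replicate 5.

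Same-numbered libraries did not deviate together throughout, so the numbers were not taken as pairs and the main fits hold no term for them. Between PSC groups r was 0.346, -0.02 and 0.456, and between MN groups it ran from -0.157 to 0.573. With the replicate block, all genes called went from 2884 to 1887 for the difference and from 1831 to 766 for CAST against BL6 MN. For CAST against BL6 PSC they went from 1455 to 2682 without the filter, 2222 with DESeq2, 226 and 368 without CAST PSC replicate 1 or 2 and 656 without BL6 PSC replicate 2.

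The main limits are 2 PSC libraries per genotype, 1 library each of CAST and 129CAS MN, and counts under 3 in several members, where 3 counts equal 0.0702 to 0.587 CPM by library.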
